A study of Mus musculus with 12 samples.

Results

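The expression of 10 secreted signals of the chemokine and IL-6 families was followed in C22 cells, an immortalised line labelled as mouse club (Clara) cells. They are the CC chemokines Ccl2, Ccl5 and Ccl7, the CXC chemokines Cxcl1, Cxcl5, Cxcl12 and Cxcl16, and the IL-6 family cytokines Il6, Il11 and Lif. They were taken by gene symbol from count tables that list 23282 genes, and each of the 10 was found there. RNA was measured by QuantSeq 3′ mRNA-seq, which counts reads from the 3′ ends of polyadenylated transcripts, in 12 libraries that fall into 4 groups of 3 replicates. NC cells carried a negative control, NC + TGF-β1 cells carried the same control and received 20 ng/ml TGF-β1 for 24 h, siPdcd5 cells were knocked down for Pdcd5, and siPdcd5 + TGF-β1 cells had both the knockdown and the same dose and time of TGF-β1. The comparisons ask how the members differ with TGF-β1 in each background, how they differ with knockdown at each treatment, and whether the TGF-β1 responses of the backgrounds differ.

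All 4 groups come from 1 cloned line, made from H-2Kb-tsA58 mice, which carry a temperature-sensitive immortalising gene. The cells are passaged with interferon-γ and differentiate at a higher temperature without it, and differentiated cells were kept without serum for a short time before TGF-β1. The labels do not say whether the 3 replicates of a group are separate cultures, so p-values measure the spread between these libraries, which may be technical. Levels are given as CPM, the counts of a gene per 1000000 counts of its library. Secretory products that define club cells were near absent: Scgb1a1 had 1 read over the 12 libraries, and Scgb3a2 and Cyp2f2 had 0. Of the other genes on a list of 15 club cell and airway markers, the epithelial genes Epcam and Nkx2-1 had 1 and 2 reads and Foxa1 and the goblet cell gene Muc5ac had 0, while Aldh1a1 lay at 155 to 556 CPM and Foxa2 at 49.1 to 213 CPM. The epithelial keratins Krt8 and Krt18 reached at least 171 and 373 CPM in every library, and the mesenchymal genes Col1a1 and Vim at least 1695 and 1130 CPM. Other fibroblast and mesenchymal genes ranged widely. Col3a1 and Acta2 reached at least 684 and 241 CPM, and Dcn, Pdgfrb and Col1a2 at least 21.8, 11.3 and 3.49 CPM. Pdgfra lay at 3.39 to 5.93 CPM, and Lum and Thy1 had 1 and 48 reads over the 12 libraries. The cells are therefore called C22 cells below. Pdcd5 itself lay at 65.1 to 73.5 CPM in NC cells, 66.3 to 69.7 CPM in NC + TGF-β1 cells, 20.0 to 22.1 CPM in siPdcd5 cells and 21.8 to 26.3 CPM in siPdcd5 + TGF-β1 cells, so each library matched its label for knockdown. The groups with and without TGF-β1 overlapped, so Pdcd5 does not check that part of the label.

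Chemokines are small secreted proteins that attract leukocytes along a gradient by binding receptors coupled to G proteins. CC chemokines have their first cysteines side by side, and CXC chemokines have 1 residue between them. IL-6 family cytokines share the receptor chain gp130, encoded by Il6st, and signal through JAK kinases to STAT3, which induces its own inhibitor Socs3. In the lung, airway epithelium, macrophages and fibroblasts make these signals during injury, and Il11 is known as a target of TGF-β in fibroblasts. Many cytokine mRNAs are short-lived because AU-rich elements in their 3′ ends are bound by decay factors.

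The coding sequences show the division of the 7 chemokines. Each run below holds 30 bases of the coding exons in GENCODE M21 (GRCm38), written 5′ to 3′ on the coding strand, with the codons of the first cysteine pair in capitals. They are shown because the results are ordered by this class.
Ccl2: ccactcaccTGCTGCtactcattcaccagc
Ccl5: accactcccTGCTGCtttgcctacctctcc
Ccl7: gcatccacaTGCTGCtatgtcaagaaacaa
Cxcl1: gagctgcgcTGTcagTGCctgcagaccatg
Cxcl5: gagctgcgtTGTgttTGCttaaccgtaact
Cxcl12: agctaccgaTGCcccTGCcggttcttcgag
Cxcl16: gctggaagtTGTtctTGTgatcgtaccatt
In Ccl2, Ccl5 and Ccl7 the capital codons touch, and in the other 4 a lower-case codon parts them. Cxcl1 and Cxcl5 also have, just before the pair, the gag, ctg and cgc or cgt codons of the ELR motif, which is known from chemokines that attract neutrophils through Cxcr2. Cxcl12, the ligand of Cxcr4, and Cxcl16, a membrane-anchored ligand of Cxcr6 that is cut free by Adam10 and Adam17, lack these codons.

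Il6 and Cxcl5 were near zero in every group. Il6, the cytokine that names its family, had 0 reads in all 6 libraries without TGF-β1, 2, 5 and 5 reads in NC + TGF-β1 replicates 1, 2 and 3, and 3, 2 and 0 reads in siPdcd5 + TGF-β1 replicates. A library at 0 allows up to 3 reads, which is 0.165 to 0.239 CPM here, and the highest Il6 level was 0.374 CPM. The reads of Il6 therefore lay in 5 of the 6 TGF-β1 libraries and in no other, at levels close to this limit, and no fold change is given. Cxcl5, a neutrophil chemokine of epithelium, had 1, 0 and 10 reads in NC cells, 4, 8 and 2 in NC + TGF-β1 cells, 1, 8 and 1 in siPdcd5 cells, and 5, 7 and 14 in siPdcd5 + TGF-β1 cells. Its 4 groups overlapped, and its highest level was 0.941 CPM. Both genes stayed under the low-count filter and were not tested. Il11 was also low, at 5 to 31 reads a library, and Ccl5 had 9 to 45 reads. The other 6 members had at least 29 reads in every library.

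Ccl2, the main attractant of monocytes through Ccr2, was higher with TGF-β1 in each background. Its levels were 12.9, 12.8 and 10.98 CPM in NC replicates 1, 2 and 3, 67.5, 132 and 79.5 CPM in NC + TGF-β1 replicates, 28.5, 25.3 and 22.9 CPM in siPdcd5 replicates, and 137, 97.4 and 155 CPM in siPdcd5 + TGF-β1 replicates. The first 3 groups in rising order, NC, siPdcd5 and NC + TGF-β1, did not overlap one another, while the 2 TGF-β1 groups did. With TGF-β1 Ccl2 rose 7.59-fold in NC cells (95% interval 5.32 to 10.8, edgeR adjusted p = 8.8e-07) and 5.09-fold in siPdcd5 cells (3.64 to 7.12, adjusted p = 5.0e-06). Here and below an adjusted p is that of the quasi-likelihood test in edgeR, corrected by Benjamini-Hochberg over 12425 genes.

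Ccl7, another monocyte attractant that also binds Ccr2, followed the same order of groups. It lay at 10.2, 10.7 and 10.3 CPM in NC cells, 45.3, 84.0 and 50.4 CPM in NC + TGF-β1 cells, 17.6, 15.6 and 12.4 CPM in siPdcd5 cells, and 69.7, 55.5 and 79.1 CPM in siPdcd5 + TGF-β1 cells. Every TGF-β1 library stood above every library without TGF-β1. The rise with TGF-β1 was 5.77-fold in NC cells (4.14 to 8.04, edgeR adjusted p = 1.8e-06) and 4.48-fold in siPdcd5 cells (3.26 to 6.16, adjusted p = 6.6e-06).

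Ccl5 attracts T cells and monocytes. Its levels were 1.98, 1.48 and 0.691 CPM in NC cells, 3.11, 2.24 and 3.00 CPM in NC + TGF-β1 cells, 1.62, 1.38 and 1.93 CPM in siPdcd5 cells, and 2.55, 3.47 and 3.02 CPM in siPdcd5 + TGF-β1 cells. The TGF-β1 libraries again stood above the untreated ones in each background. The log2 differences with TGF-β1, 1.00 ± 0.34 (SE) in NC cells and 0.87 ± 0.32 in siPdcd5 cells, did not pass the test (edgeR adjusted p = 0.0593 and 0.0792). In NC cells it passed without NC replicate 1 or without NC + TGF-β1 replicate 2 (adjusted p = 0.0310 and 0.0373), and DESeq2 called both differences (0.0326 and 0.0494).

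Cxcl16 rose with TGF-β1 in both backgrounds. It measured 3.73, 3.56 and 3.92 CPM in NC cells, 20.6, 12.9 and 19.5 CPM in NC + TGF-β1 cells, 2.14, 2.81 and 1.93 CPM in siPdcd5 cells, and 14.1, 13.1 and 14.2 CPM in siPdcd5 + TGF-β1 cells. Its order of groups, siPdcd5, NC, siPdcd5 + TGF-β1 and NC + TGF-β1, put each knockdown group below its control, though the 2 TGF-β1 groups overlapped. The rise was 4.73-fold in NC cells (3.53 to 6.34, edgeR adjusted p = 1.8e-06) and 5.95-fold in siPdcd5 cells (4.38 to 8.08, adjusted p = 7.9e-07).

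Cxcl1, the ELR chemokine with enough counts to test, rose by smaller folds. It lay at 7.83, 11.7 and 8.21 CPM in NC cells, 13.8, 22.9 and 14.6 CPM in NC + TGF-β1 cells, 19.2, 13.6 and 13.6 CPM in siPdcd5 cells, and 24.0, 23.7 and 27.7 CPM in siPdcd5 + TGF-β1 cells. NC cells were lowest and siPdcd5 + TGF-β1 cells highest, and the groups between them overlapped. The rise with TGF-β1 was 1.85-fold in NC cells (1.34 to 2.56, edgeR adjusted p = 0.0117) and 1.63-fold in siPdcd5 cells (1.198 to 2.21, adjusted p = 0.0316). In NC cells the call was lost without NC replicate 1 or NC replicate 3 (edgeR adjusted p = 0.0633 and 0.0639), and in siPdcd5 cells it was lost without any 1 library other than siPdcd5 replicate 1 (adjusted p up to 0.114).

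Cxcl12, which retains stem cells and leukocytes through Cxcr4, did not pass the test in any comparison. Its levels were 185, 178 and 183 CPM in NC cells, 127, 236 and 162 CPM in NC + TGF-β1 cells, 292, 155 and 176 CPM in siPdcd5 cells, and 171, 166 and 175 CPM in siPdcd5 + TGF-β1 cells. NC + TGF-β1 replicate 2 and siPdcd5 replicate 1 lay high, and the groups overlapped in each comparison made. The log2 difference with TGF-β1 was -0.06 in NC cells (95% interval -0.53 to 0.41) and -0.28 in siPdcd5 cells (-0.75 to 0.19).

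**Figure D1:**
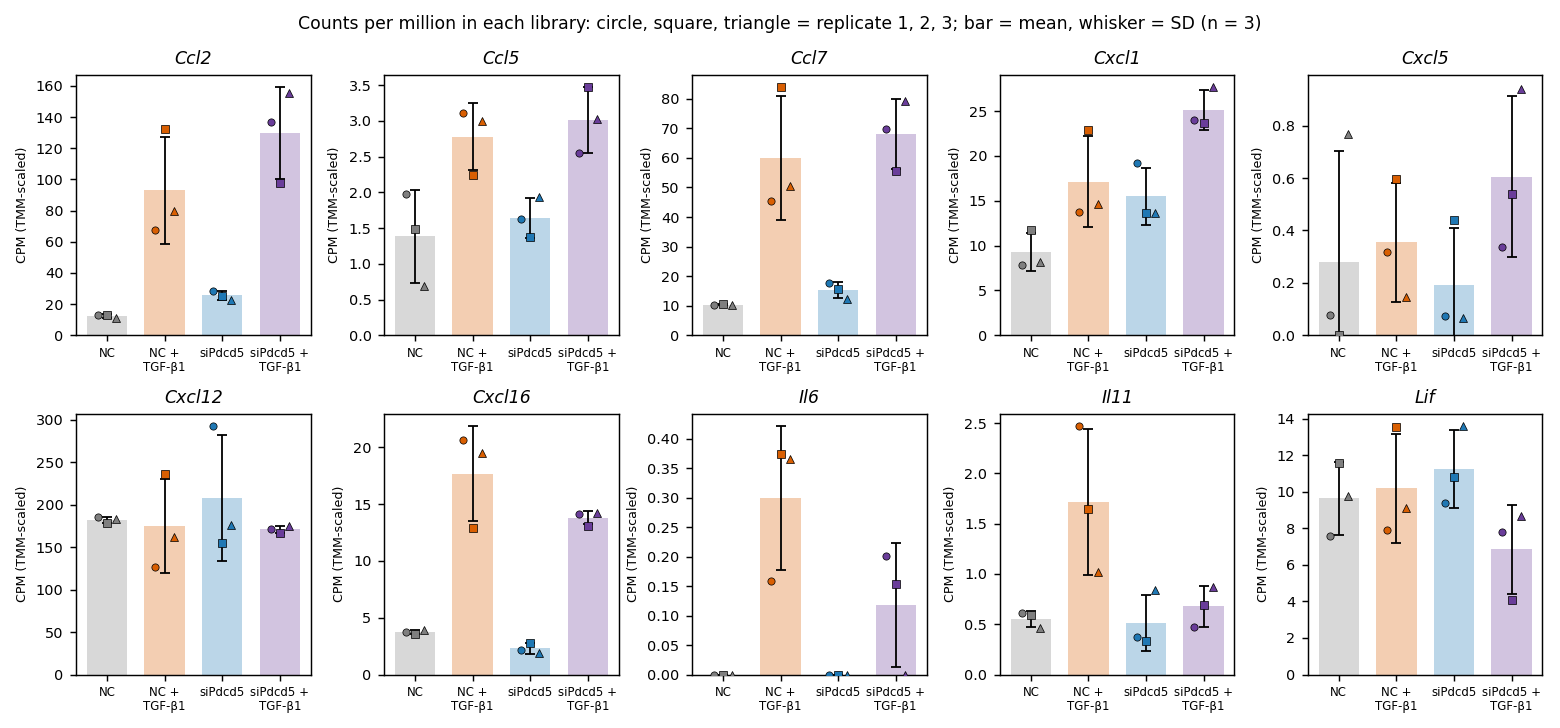
CPM of the 10 members (vertical axes, TMM-scaled, each panel with its own scale from 0) in the 4 groups; symbols are the 3 libraries, bars the mean and whiskers the SD (n = 3). Every TGF-β1 library of Ccl2, Ccl7 and Cxcl16 stands above every untreated one, Cxcl12 overlaps throughout, and Il6 and Cxcl5 stay under 1 CPM.

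Among the IL-6 family members, Il11 was higher with TGF-β1 in NC cells. It had 8, 8 and 6 reads in NC cells, 31, 22 and 14 in NC + TGF-β1 cells, 5, 6 and 13 in siPdcd5 cells, and 7, 9 and 13 in siPdcd5 + TGF-β1 cells. NC + TGF-β1 libraries stood above every other library, and the other 3 groups overlapped. On the CPM scale the group means were 0.554 ± 0.0813, 1.71 ± 0.725, 0.512 ± 0.282 and 0.679 ± 0.202 (SD, n = 3). The log2 difference with TGF-β1 was 1.60 ± 0.46 (SE) in NC cells (edgeR adjusted p = 0.0285) and 0.41 ± 0.51 in siPdcd5 cells (adjusted p = 0.642). Il11 passed the low-count filter through NC + TGF-β1, where all 3 libraries exceeded the level against 0 NC, 1 siPdcd5 and 1 siPdcd5 + TGF-β1 library, so its test depended on that group being high. The call was lost without any 1 of the 3 NC libraries or without NC + TGF-β1 replicate 1 (edgeR adjusted p = 0.0764 to 0.144), and also with no low-count filter (0.0519).

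Lif, which keeps embryonic stem cells undifferentiated and signals through Lifr and gp130, had 53 to 211 reads a library. It lay at 7.60, 11.6 and 9.75 CPM in NC cells, 7.88, 13.5 and 9.14 CPM in NC + TGF-β1 cells, 9.37, 10.8 and 13.6 CPM in siPdcd5 cells, and 7.78, 4.09 and 8.67 CPM in siPdcd5 + TGF-β1 cells. All siPdcd5 + TGF-β1 libraries were below all siPdcd5 libraries, and the NC groups overlapped. The log2 difference with TGF-β1 was -0.71 ± 0.27 (SE) in siPdcd5 cells and 0.08 ± 0.27 in NC cells, and neither passed the test (edgeR adjusted p = 0.0939 and 0.893).

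Counted over the chemokines, 4 of 7 rose with TGF-β1 in NC cells, 2 were tested and did not pass, and Cxcl5 was not tested. None fell, and of all genes tested 15.3% were called and 8.57% were called higher. Il11 is left out of this count because of how it passed the filter. In siPdcd5 cells the 4 members called, Ccl2, Ccl7, Cxcl1 and Cxcl16, were higher and 0 were lower, against 16.1% of all genes called and 8.50% called higher. Without regard to the test, the TGF-β1 libraries of 5 of the 6 tested chemokines, Ccl2, Ccl5, Ccl7, Cxcl1 and Cxcl16, stood above every untreated library in each background, which was so for 15.3% of all genes tested in NC cells and 17.9% in siPdcd5 cells, and those of Lif stood below in siPdcd5 cells (18.1% of all genes). The median log2 difference of the 6 tested chemokines was 1.62 in NC cells and 1.52 in siPdcd5 cells, where all genes tested had medians of 0.00 and -0.03. The members were chosen with earlier results of these data known, so their counts and medians are not a test against all genes. In bulk RNA, a change in the share of cells that express a gene and a change in RNA per cell cannot be told apart.

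The level of cell type markers is given beside these rises. The summed level of 10 fibroblast and mesenchymal markers was 6246 to 6637 CPM in NC cells and 10039 to 10835 CPM in NC + TGF-β1 cells, and 5193 to 5479 CPM in siPdcd5 cells and 7563 to 8119 CPM in siPdcd5 + TGF-β1 cells. The sum of 15 club cell and airway markers, nearly all of it keratins, Aldh1a1 and Foxa2, was 1390 to 1436, 1523 to 1965, 1057 to 1221 and 1804 to 1887 CPM in the same order. Both sums were higher with TGF-β1, but a few abundant genes carried them and single markers moved both ways. Of the club cell and airway list 5 were tested, and in NC cells 2 were higher and 2 lower, with log2 changes of 1.36 for Krt8, 1.05 for Krt18, -1.22 for Aldh1a1 and -1.77 for Foxa2. Of the fibroblast and mesenchymal list 8 were tested, with 5 higher and 2 lower in NC cells, the latter being Dcn and Vim. Their part in the result was not tested. The sum of 11 leukocyte markers was 14.97 to 17.6 CPM in NC cells, 18.3 to 23.8 CPM with TGF-β1, 14.1 to 24.7 CPM in siPdcd5 cells and 13.9 to 20.0 CPM in siPdcd5 + TGF-β1 cells. Cd68, at 91 to 162 reads a library, Cd14, at 51 to 133 reads, and Csf1r, at 7 to 67 reads, made up nearly all of this sum. Of the other leukocyte markers Cd3e was at 0 in all libraries, Adgre1 had 1 read in all, and Ptprc had at most 6 reads in a library. The sum of 6 endothelial markers ranged from 0.804 to 2.48 CPM over all libraries, and the 8 alveolar markers, with Sftpa1 and Sftpd at 0, summed to 259 to 493 CPM. Pdpn, at 230 to 442 CPM, and Aqp5, at 25.6 to 57.2 CPM, made up nearly all of the alveolar sum. Sftpc, Sftpb and Lamp3 had 2, 10 and 58 reads over the 12 libraries.

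NC + TGF-β1 replicate 2 stood apart from its group. Its root mean square deviation from the group mean was 0.334 log2 CPM over the genes tested, against 0.202 to 0.285 in the other 11 libraries. For the members this library held the highest value of Ccl2, Ccl7, Cxcl1, Cxcl12 and Lif in its group, at 1.59 to 1.80 times the mean of the other 2 libraries. It held the lowest value of Cxcl16, at 0.644 times that mean, and of Ccl5. The TGF-β1 rises of Ccl2, Ccl7, Cxcl1 and Cxcl16 in NC cells passed the test without it, with Ccl2 at a log2 difference of 2.58 and Ccl7 at 2.204. Il11 also passed, but its test depended on the NC + TGF-β1 group being high, and leaving out other libraries ended its call. siPdcd5 replicate 1 had the next largest deviation and the highest Cxcl12 level.

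Knockdown without TGF-β1 changed 1 member by the test. Ccl2 was 2.08-fold higher in siPdcd5 than in NC cells (95% interval 1.46 to 2.96, edgeR adjusted p = 0.0248), with the 3 siPdcd5 libraries at 22.9 to 28.5 CPM above the 3 NC libraries at 10.98 to 12.9 CPM. Of all genes tested, 3.44% were called in this comparison and 0.901% were called higher. The groups did not overlap for Ccl7 and Cxcl1, which were 0.55 ± 0.23 and 0.74 ± 0.22 higher on the log2 scale (SE, edgeR adjusted p = 0.247 and 0.0900), nor for Cxcl16, which had a log2 difference of -0.69 ± 0.23 (adjusted p = 0.128). Groups that do not overlap were found for 10.6% of all genes with knockdown higher and for 12.5% with knockdown lower. Ccl5, Cxcl12, Il11 and Lif overlapped. The call of Ccl2 was lost when any 1 of the 6 libraries was left out, with edgeR adjusted p between 0.0518 and 0.125 and log2 differences between 0.97 and 1.13.

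Knockdown in the presence of TGF-β1 gave no member past the threshold in edgeR, and none in DESeq2, while 1.55% of all genes were called. At an unadjusted p under 0.05 there were 3 of the 8 members tested, Ccl2, Cxcl1 and Il11, against 13.8% of all genes. Il11 passed the low-count filter through NC + TGF-β1, so the filter itself favoured a lower level of Il11 with knockdown in this comparison. Ccl2 had a log2 difference of 0.48 (95% interval 0.03 to 0.93, edgeR adjusted p = 0.334), Cxcl1 one of 0.55 (0.11 to 1.00, adjusted p = 0.231) and Il11 one of -1.32 (-2.27 to -0.36, adjusted p = 0.181). The groups of Ccl2 overlapped, all siPdcd5 + TGF-β1 libraries of Cxcl1 stood above the NC + TGF-β1 libraries, and all those of Il11 stood below. The groups did not overlap, in either direction, for 18.9% of all genes. Without NC + TGF-β1 replicate 2, Ccl2 and Cxcl1 passed the test, each with a log2 difference of 0.82 (edgeR adjusted p = 0.00880 and 0.0242).

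The TGF-β1 responses of the backgrounds were compared by the interaction term, which is the log2 response in siPdcd5 cells minus that in NC cells. No member and no other gene was called by edgeR, and at an unadjusted p under 0.05 there were 0 members and 5.13% of all genes. DESeq2 called 0 members and 15 genes. The term was -0.58 for Ccl2 (95% interval -1.26 to 0.10), -0.36 for Ccl7 (-1.01 to 0.28), -0.18 for Cxcl1 (-0.83 to 0.46) and 0.33 for Cxcl16 (-0.28 to 0.94). It was -1.20 for Il11 (-2.69 to 0.29), with the same limit from the filter, and -0.79 for Lif (-1.61 to 0.03). These intervals include both no difference and differences of over 1.5-fold, so equal responses were not shown. The 4 comparisons share groups of libraries, so they are not independent of one another.

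**Figure D2:**
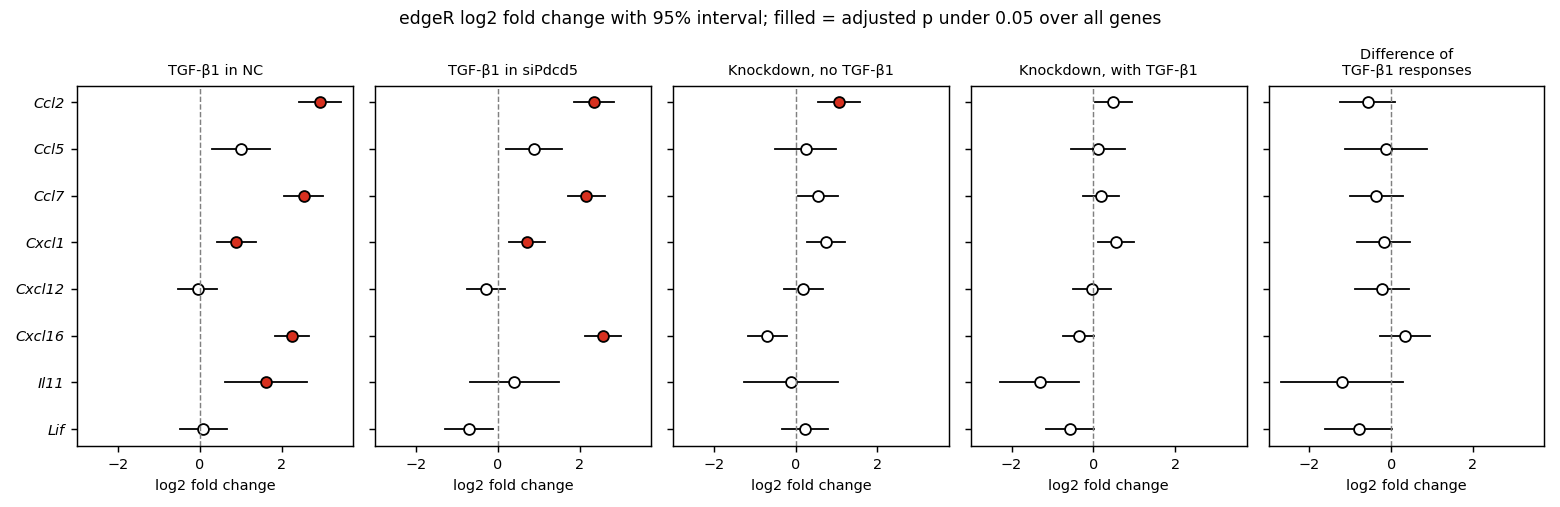
The log2 fold change of the 8 members tested (points) with its 95% interval (lines) in 5 comparisons, from 1 edgeR model of 12 libraries; red points have an adjusted p under 0.05 over all genes and open points do not. The TGF-β1 panels hold 5 and 4 red points, the panel of knockdown without TGF-β1 holds Ccl2 alone, and the last 2 panels hold none. The 5 include Il11, whose test depended on the NC + TGF-β1 group being high. Of all genes, 15.3% and 16.1% were called in the TGF-β1 comparisons and 3.44% with knockdown without TGF-β1.

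Ccl2 and Ccl7 are neighbours in the genome. Ccl2 lies at chr11:82035571-82037453 and Ccl7 at chr11:82045712-82047525 (GRCm38), both on the + strand, 8258 bases apart with 0 annotated genes between them. Ccl2 overlaps the annotated gene Gm17268 on the other strand, and the use of strand in counting is not stated in the sources used here, so reads of that gene could not be told from those of Ccl2. Within a library, the number of Ccl2 reads per Ccl7 read is the same under any library scaling. This ratio was 1.27, 1.201 and 1.07 in NC cells, 1.49, 1.57 and 1.58 in NC + TGF-β1 cells, 1.62, 1.62 and 1.84 in siPdcd5 cells, and 1.96, 1.76 and 1.96 in siPdcd5 + TGF-β1 cells. The knockdown groups stood above their controls without overlap at both treatments, and NC + TGF-β1 stood above NC, while siPdcd5 and siPdcd5 + TGF-β1 overlapped. The mean ratio differed between siPdcd5 and NC cells by 0.512 and between siPdcd5 + TGF-β1 and NC + TGF-β1 cells by 0.348, each with p = 0.1 in an exact two-sided permutation test, the smallest p that 3 against 3 libraries allow. Adjusted over the 4 comparisons these are 0.133, and NC + TGF-β1 against NC gave a difference of 0.367 with the same p-values. The siPdcd5 groups differed by 0.203 (exact permutation p = 0.2, adjusted 0.2). The ratio was chosen after the values were seen, and it compares 3′ reads and not numbers of transcripts.

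**Figure D3:**
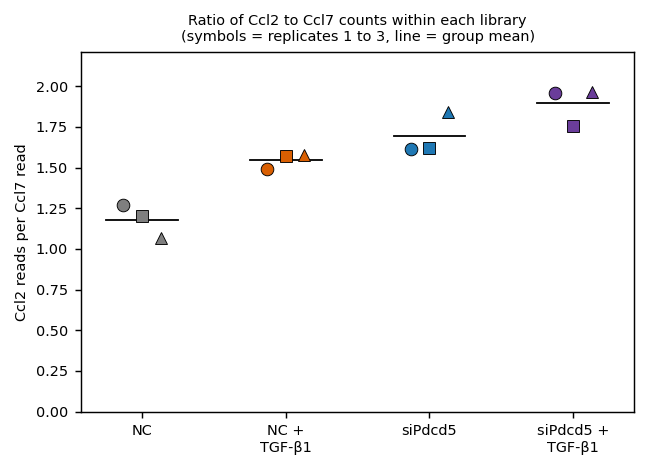
Reads of Ccl2 per read of Ccl7 (vertical axis, from 0) within each of the 12 libraries, by group, with the group mean as a line. The 3 NC libraries lie lowest, at 1.07 to 1.27, and the 3 siPdcd5 + TGF-β1 libraries lie at 1.76 to 1.96, above both NC groups.

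The remaining members lie apart from this pair. Ccl5 is at chr11:83525778-83530518 and Cxcl16 at chr11:70453983-70459984, both on the - strand, Lif is at chr11:4257557-4272514 on the + strand, and Il11 is at chr7:4772373-4782859 on the - strand. Cxcl1 is at chr5:90891241-90893115, Cxcl5 at chr5:90759360-90761624 and Il6 at chr5:30013114-30019981, all on the + strand, and Cxcl12 is at chr6:117168535-117181367 on the + strand. Cxcl16 overlaps Zmynd15 on the other strand. The last 300 bases of its transcript also aligned to 64 other genes, the best being Slc23a4 at 71.6% identity over 169 bases, and no such alignment of at least 50 bases was found for the other 9 members. The authors counted multiple alignments, and whether any Cxcl16 read was shared with these genes was not tested.

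Cxcl1 and Il11 were called with TGF-β1 in NC cells, though the test of Il11 depended on the NC + TGF-β1 group being high. The windows before their start sites are shown for the motifs they hold. They are the 250 bases up to the start in RefSeq on GRCm38.p6, written 5′ to 3′ on the gene's strand, with capitals for the NF-κB consensus in Cxcl1 (chr5:90890995-90891244) and for the AP-1 motif TGANTCA at the second start of Il11 (chr7:4778142-4778391).
Cxcl1: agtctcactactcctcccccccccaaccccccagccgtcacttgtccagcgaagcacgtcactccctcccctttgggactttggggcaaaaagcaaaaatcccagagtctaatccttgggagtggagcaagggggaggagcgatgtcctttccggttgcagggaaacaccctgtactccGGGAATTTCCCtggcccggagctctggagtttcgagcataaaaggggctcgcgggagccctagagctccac
Il11: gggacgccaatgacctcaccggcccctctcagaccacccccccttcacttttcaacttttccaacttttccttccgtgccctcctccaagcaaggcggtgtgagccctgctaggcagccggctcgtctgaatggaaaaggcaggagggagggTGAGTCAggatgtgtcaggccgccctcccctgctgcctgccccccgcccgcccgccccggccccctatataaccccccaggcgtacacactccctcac
The capitals in Cxcl1 hold 2 overlapping matches of the NF-κB consensus, 1 on each strand. RefSeq windows that run from 250 bases before the start to 50 after it were found for 5 of the 10 members, Il6, Cxcl1, Cxcl12, Il11 and Lif, and were searched on both strands. Il6, Cxcl1 and Lif held the NF-κB consensus, which 8.46% of all 32851 windows held. Il6, Il11 and Lif held TGANTCA, which 7.81% held. In Il11 it lay in the window of the second start and not in that of the first. Lif, which was not called with TGF-β1, and Il6, which was not tested, held both motifs. The SMAD motif CAGAC, bound by the proteins that carry TGF-β signals to DNA, was found in the windows of Il6, Cxcl1, Il11 and Lif and in 49.6% of all windows. No window was found for Ccl2, Ccl5, Ccl7, Cxcl5 and Cxcl16, so these genes were not searched for motifs. A match describes letters only, and no binding was measured here.

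The 3′ ends, where the sequenced reads lie, differ in AU-rich elements. The nonamer TTATTTATT, a core of the element that decay factors of the Zfp36 family bind, was found in the annotated 3′ UTR of 3 of the 10 members and of 6.96% of 20616 coding genes. Cxcl1 held 2 copies, Il11 held 5 and Lif held 2. The first site of each is shown with the bases beside it, the nonamer in capitals.
Cxcl1: atttatgtatTTATTTATTccacaaagtg
Il11: aaaccagatcTTATTTATTtatttatttt
Lif: aaaggggcctTTATTTATTatttaaaact
The shorter pentamer ATTTA was densest in Il6, at 14.1 copies per kb, and in Cxcl1, at 11.8 per kb, where the median coding gene had 1.14. Ccl2, Ccl7 and Cxcl16, which rose most with TGF-β1 by fold, had 3.64, 4.60 and 1.41 copies per kb and no nonamer.

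Other genes of the pathways were read from fixed lists, starting with the ligands. Of 31 other chemokine ligands, 7 had 0 reads in all libraries, Cxcl2, Cxcl3 and Ccl20 among them, and 11 were tested. With TGF-β1 in NC cells 5 were higher and 2 lower, and in siPdcd5 cells 6 were higher and 2 lower. The shares of all genes called in these comparisons were 15.3% and 16.1%, and for higher calls 8.57% and 8.50%. The counts of ligands include Ccl17 and Cxcl11, which exceeded the level of the low-count filter only in TGF-β1 libraries. They also include Cxcl15, which exceeded it only in untreated libraries. The tests of these genes thus depended on the groups where they were high, and the counts are not set against the shares as a result. Ccl17, which attracts T cells through Ccr4, rose from 0.277 ± 0.113 to 2.77 ± 0.271 CPM in NC cells (SD, n = 3) and from 0.451 ± 0.135 to 3.04 ± 0.274 CPM in siPdcd5 cells (edgeR adjusted p = 1.9e-05 and 3.6e-05), from 2 to 5 reads in an NC library. All untreated libraries of Ccl17 lay under the level of the low-count filter, so its test depended on the TGF-β1 groups being high. Ccl9 rose from 3.45 ± 0.883 to 14.1 ± 0.700 CPM in NC cells and from 5.31 ± 1.38 to 21.3 ± 1.00 CPM in siPdcd5 cells. The interferon-inducible Cxcl10 rose from 3.02 ± 0.522 to 11.2 ± 2.11 CPM and from 2.74 ± 0.213 to 12.8 ± 1.34 CPM. Cxcl17, a mucosal chemokine, fell from 2.77 ± 0.641 to 0.719 ± 0.427 CPM and from 3.44 ± 0.931 to 0.833 ± 0.275 CPM. In each of these 4 genes, named because they were called, the TGF-β1 and untreated libraries did not overlap in either background. TGF-β1 libraries stood above without overlap for 15.3% of all genes in NC cells and 17.9% in siPdcd5 cells. They stood below for 18.1% in siPdcd5 cells, and the share below in NC cells was not counted. Cxcl15, called lungkine after its tissue, had 11, 10 and 10 reads in NC cells and 1, 0 and 0 with TGF-β1, and 14, 23 and 11 reads in siPdcd5 cells and 2, 0 and 0 with TGF-β1. Cxcl11 had 3, 5 and 5 reads in NC cells, 12, 8 and 18 with TGF-β1, 1, 1 and 2 in siPdcd5 cells and 8, 11 and 9 with both. Cxcl11 and Cxcl15 passed the test with TGF-β1 in both backgrounds, but siPdcd5 cells for Cxcl11 and both TGF-β1 groups for Cxcl15 lay under 3 reads a library, and no fold is given.

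With knockdown 1 of these 11 ligands was called without TGF-β1 and none with it, against 3.44% and 1.55% of all genes. Ccl6, a myeloid chemokine, had 2, 2 and 1 reads in NC cells and 14, 11 and 20 reads in siPdcd5 cells (edgeR adjusted p = 0.0456), and the call was lost without any 1 of the 3 NC libraries, siPdcd5 replicate 1 or siPdcd5 replicate 3 (adjusted p up to 0.180). Ccl6 exceeded the level of the low-count filter only in knockdown libraries, so its test depended on those groups being high. None of 8 other IL-6 family ligands was called in any comparison, with 4 tested and Osm and Ctf2 at 0 reads.

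Most chemokine receptors, which would let C22 cells sense these ligands, had too few reads to be tested, while most IL-6 family receptors were tested. Of 21 chemokine receptors 6 were tested, and Ccr2, the receptor of Ccl2 and Ccl7, had 1 read over the 12 libraries. Cxcr6, the receptor of Cxcl16, was the 1 receptor called, with TGF-β1 in both backgrounds, where 15.3% and 16.1% of all genes were called. It had 2, 1 and 1 reads in NC cells, 11, 27 and 13 in NC + TGF-β1 cells, 0 in each siPdcd5 library and 6, 4 and 5 in siPdcd5 + TGF-β1 cells, and it passed the low-count filter only through NC + TGF-β1. Of 8 IL-6 family receptor genes 6 were tested, and all 6 exceeded the level of the low-count filter in each of the 12 libraries. None of them was called with TGF-β1. Il6st fell with knockdown from 72.5 ± 2.44 to 52.1 ± 2.64 CPM without TGF-β1, a log2 change of -0.48 ± 0.09 (SE, edgeR adjusted p = 0.00847), and the groups did not overlap. Without NC replicate 2 the adjusted p was 0.0505. Of all genes, 3.44% were called in this comparison, and 12.5% had groups without overlap with knockdown lower. With TGF-β1 Il6st lay at 66.9 ± 6.02 CPM in NC cells and 53.8 ± 1.58 CPM in siPdcd5 cells, also without overlap, and was not called (edgeR adjusted p = 0.107). The groups did not overlap, in either direction, for 18.9% of all genes in that comparison.

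Of 18 genes of the JAK-STAT3 pathway and its feedback, 3 were higher and 1 lower with TGF-β1 in NC cells, and 3 were higher and 2 lower in siPdcd5 cells. Of all genes 15.3% and 16.1% were called, and 8.57% and 8.50% were called higher. The list is short, and its counts are not set against these shares as a result. Socs3, the feedback inhibitor of gp130 signalling, fell from 36.3 ± 2.26 to 19.0 ± 6.46 CPM in NC cells and from 45.3 ± 8.25 to 18.5 ± 1.15 CPM in siPdcd5 cells, with log2 changes of -0.93 and -1.29 (edgeR adjusted p = 0.00335 and 0.000236). The kinase gene Pim1 rose by 0.77 and 0.61 on the log2 scale, and Cish, an inhibitor of STAT5 signalling, by 0.91 and 0.93. Bcl3 rose by 0.67 in NC cells and 0.54 in siPdcd5 cells, and Stat5a fell by 0.73 in siPdcd5 cells. Leaving out 1 library ended some of these calls. In NC cells Cish was lost without NC replicate 1, NC replicate 3 or NC + TGF-β1 replicate 2 (edgeR adjusted p up to 0.0810) and Bcl3 without NC replicate 2 (0.0538). In siPdcd5 cells Cish was lost without siPdcd5 replicate 2, siPdcd5 replicate 3 or siPdcd5 + TGF-β1 replicate 2 (up to 0.0700), and Stat5a without siPdcd5 replicate 1 or any 1 siPdcd5 + TGF-β1 library (up to 0.157). Members of the list thus moved in opposite directions, with Socs3 and Stat5a down and Pim1, Cish and Bcl3 up. With knockdown 0 of the 18 genes was called by edgeR at either treatment.

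Of 20 genes of the NF-κB pathway and its feedback, 4 were higher and 1 lower in NC cells with TGF-β1, and 3 were higher and 1 lower in siPdcd5 cells. The shares of all genes were 15.3% and 16.1% called and 8.57% and 8.50% called higher. These counts are likewise not read as a result. Map3k14, the kinase of the non-canonical arm, rose from 18.0 ± 2.18 to 36.6 ± 10.2 CPM in NC cells and from 15.1 ± 2.54 to 30.4 ± 2.17 CPM in siPdcd5 cells (edgeR adjusted p = 0.00136 and 0.00161). The inhibitor gene Nfkbia rose by 0.67 on the log2 scale in both, Nfkbie by 0.65 in NC cells and 0.76 in siPdcd5 cells, and Relb by 0.74 in NC cells. Relb was lost without NC replicate 1 or NC replicate 3 (edgeR adjusted p = 0.0580 and 0.0725). Cebpd, a transcription factor of the acute-phase response, fell by 0.89 and 0.83. With knockdown 0 of these 20 genes was called at either treatment.

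Of 9 genes of chemokine mRNA decay and protein processing, 8 were tested. With TGF-β1 1 was higher and 1 lower in each background, beside 15.3% and 16.1% of all genes called. Zc3h12a, which encodes Regnase-1, an endonuclease that degrades Il6 and other cytokine mRNAs, rose from 6.89 ± 0.562 to 14.6 ± 1.44 CPM in NC cells and from 8.33 ± 1.16 to 15.99 ± 2.37 CPM in siPdcd5 cells (edgeR adjusted p = 0.000216 and 0.000589). Adam17, which sheds Cxcl16 from the membrane, fell by 0.34 on the log2 scale in NC cells (adjusted p = 0.0281), and that call was lost without any 1 NC library or NC + TGF-β1 replicate 3 (up to 0.116). Zfp36l2, which encodes a protein that binds AU-rich elements, fell by 0.85 in siPdcd5 cells (adjusted p = 0.0290), and that call was lost without siPdcd5 replicate 1 or any 1 siPdcd5 + TGF-β1 library (up to 0.135). With knockdown 0 of the 8 was called at either treatment.

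**Figure D4:**
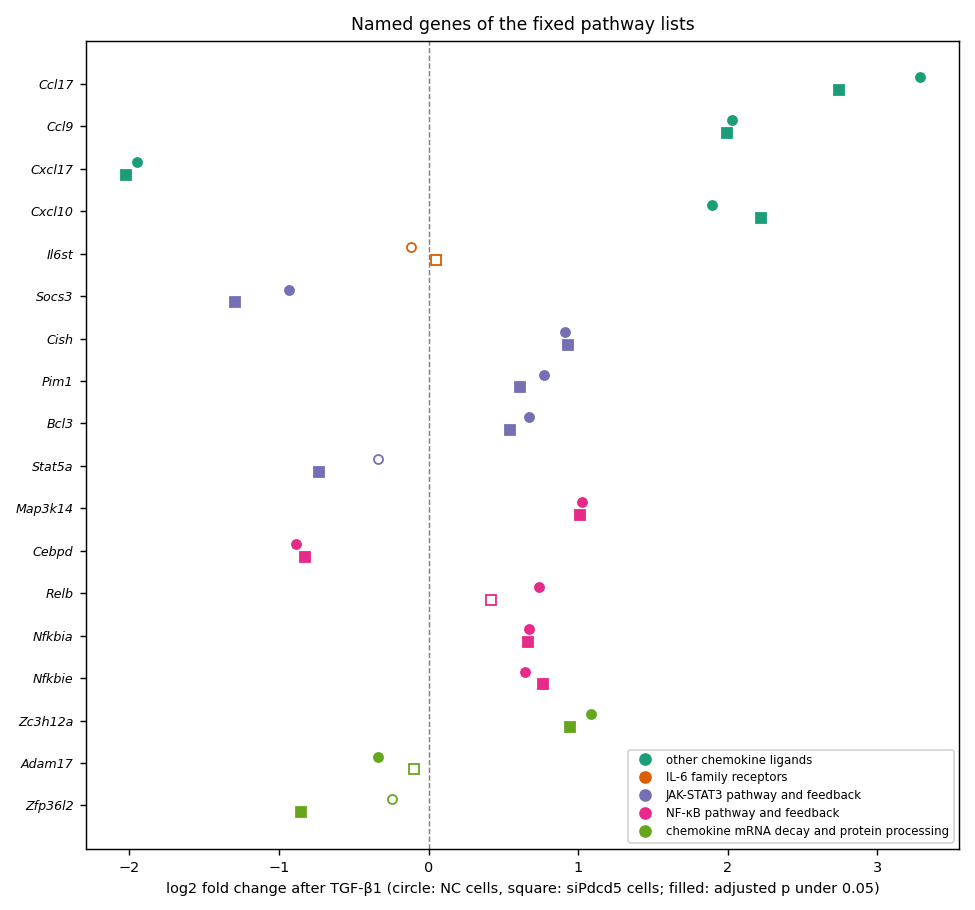
The log2 fold change with TGF-β1 (horizontal axis) of the named genes of the pathway lists, with circles for NC cells, squares for siPdcd5 cells and filled symbols for an adjusted p under 0.05; genes with a group at or under 3 reads a library are left out. Ccl17, with 2 to 5 reads in an NC library, Ccl9 and Cxcl10 lie highest in both backgrounds, and Cxcl17, Socs3 and Cebpd lie below 0 in both.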

How the data were processed

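The authors made QuantSeq 3′ libraries, aligned reads with Bowtie2 (build mm10 in the submitters' processing notes, which also name edgeR) and used Bedtools to count the unique and multiple alignments of each gene. The deposited values are whole-number counts per gene symbol, as the authors made them. The quantile normalization named in the methods is not in these counts. Of 23282 rows, 44 repeat another symbol, and 5134 have no count. Library totals were 12809857 to 17714828. At 3 counts, taken as the smallest detectable level, a library reaches 0.165 to 0.239 CPM; reads carry no molecular identifiers, so this limit covers counting error only.

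1 receptor gene is not reported here. Groups were taken from the labels. Here edgeR 4.0.16 (R 4.3.3) kept 12425 genes by filterByExpr, scaled libraries by TMM and fitted 1 quasi-likelihood model of 4 groups (square root of the common dispersion 0.132). A Benjamini-Hochberg adjusted p under 0.05 was a call. CPM uses TMM-scaled sizes. Log2 CPM used a prior count of 2. The model was tested on simulated data first. No pair of libraries agreed within sampling noise (chi-square per degree of freedom 4.40 to 62.7).

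Alternatives were DESeq2 1.42.0, upper-quartile scaling, limma-trend after quantile normalization (limma 3.58.1), no low-count filter, a minimum of 10 counts in each library, a fit of the compared libraries alone, the replicate number as a block, and each library left out. The members, lists and alternatives were chosen with earlier results of these data known. The named genes are the 10 members, Pdcd5 and, per list and comparison, at most the 4 called genes with the largest absolute log2 change; other genes are named as markers, receptors of a member or genes at 0 reads, and were chosen after their values were seen. Positions come from GENCODE M21, promoters from RefSeq, and similar transcripts were searched with BLAST 2.17.0.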

Additional observations from a re-analysis of the deposited data

How the results depend on the processing

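The rises of Ccl2, Ccl7 and Cxcl16 with TGF-β1 passed the test in both backgrounds under each of 13 alternatives. Of 8 tested members, 5 were called with TGF-β1 in NC cells, with 3 to 6 when 1 library was left out (3 without NC replicate 3) and 4 under the replicate block. The 5 include Il11, whose test depended on the NC + TGF-β1 group being high. Of all genes 15.3%, or 1906, were called there, with 1391 to 2554 when 1 library was left out and 1687 under the block. In siPdcd5 cells 4 members were called, with 3 to 4 when 1 library was left out. Of all genes 16.1%, or 2002, were called there, with 1371 to 1737 when 1 library was left out. Knockdown without TGF-β1 called 1 member, but 2 with DESeq2, 2 with no low-count filter, 0 under the replicate block and 0 to 0 with any library left out. Knockdown with TGF-β1 called 0, and 0 to 2 with a library left out (2 without NC + TGF-β1 replicate 2). The interaction called 0 members, and 0 to 0 with a library left out. In the main fit, knockdown called 3.44% of all genes without TGF-β1 and 1.55% with it, and the interaction called none.

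The replicate numbers gave little sign of pairing: 3 of 18 same-numbered pairs correlated over 0.1 (r from -0.32 to 0.20, mean -0.025, against 0.013 for other pairs). With 3 libraries a group, these correlations cannot tell whether libraries of the same number shared a culture or batch. Under the block the adjusted p of Ccl2 with knockdown was 0.0524 and that of Il11 with TGF-β1 in NC cells 0.0543.

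Over all genes, knockdown with TGF-β1 called 192 genes, but 458 with DESeq2, 44 from the compared libraries alone, 107 with the block and 73 to 322 with a library left out; 41 were higher and 151 lower, against 51 and 110 with quantile normalization. Knockdown without TGF-β1 called 427 genes, 714 with DESeq2 and 167 to 324 with a library left out. The interaction called 0, but 15 with DESeq2 and 2 without NC + TGF-β1 replicate 2.

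With a library left out, the 4 differences of the Ccl2 per Ccl7 ratio, added after seeing the data, kept their sign (0.165 to 0.557).

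Signs reversed for members that were not called: Cxcl12 for knockdown with TGF-β1 to 0.029 under quantile normalization, and others when a library was left out. For Cxcl12 these ranges were -0.34 to 0.12 (TGF-β1 in NC cells), -0.45 to 0.051 (in siPdcd5 cells), -0.14 to 0.36 (knockdown), -0.22 to 0.24 (with TGF-β1) and -0.41 to 0.12 (interaction). For Ccl5 they were -0.084 to 0.58 (knockdown), -0.020 to 0.22 (with TGF-β1) and -0.47 to 0.21 (interaction). They were -0.39 to 0.090 for the Cxcl1 interaction, -0.66 to 0.14 for Il11 with knockdown, -0.18 to 0.23 for Lif and -0.046 to 0.051 for Pdcd5 with TGF-β1 in NC cells. Apart from the alternatives that build in fewer samples or genes, the cause was not tested. Depth limits Il6, Cxcl5, Cxcr6, Cxcl15, Cxcl11, Ccl6 and Ccl17, which lie near 3 reads in at least 1 group.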
